A study of Mus musculus with 30 samples.

Results

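H3K4me3 peaks were compared between ER-Hoxa9-Lys-GFP cells kept in estradiol (E2) and cells that spent 24 h without E2 and then 96 h with E2 restored. The comparison used 1 library a side out of 30 samples in the series. A peak was counted as standing in one list only when no peak of the other list overlapped it by 1 bp. By that rule 939 of 17497 E2 peaks (5.37%) and 6888 of 22871 peaks of the 24 h library (30.1%) stood in one list only. For genes, peak length was summed over the gene span plus 1 kb on either side, and "covered length" below is that sum in bp.

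Both groups were C57BL/6 cells cultured in medium with 10% serum and medium conditioned for stem cell factor, and both carried the ER-Hoxa9 fusion and the Lys-GFP reporter named in the labels. Withdrawal consisted of washes in PBS and a change to medium without E2. Chromatin (500 ug) from formaldehyde-fixed cells was precipitated with an antibody to H3K4me3. The E2 group was untreated throughout. For the other H3K4me3 lists E2 had been withdrawn for 40 h and restored for 80 h, withdrawn for 72 h and restored for 48 h, or withdrawn for 120 h without restoration, and these are written below as 40, 72 and 120 h. They differ in the length of both withdrawal and restoration, so they are separate treatments and not successive times. The sources used here do not say whether the line is 1 clone. With 1 library a side there is no replicate check, no difference below was tested, and intervals are exact Clopper-Pearson 95% intervals that cover counting error only. In such bulk samples, fewer cells with the mark and less mark per cell cannot be told apart.

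H3K4me3 is the trimethylated form of lysine 4 of histone H3, placed by MLL and SET1 methyltransferase complexes and found around the start sites of active or poised genes, mostly in CpG-rich DNA. HOXA9 is a homeodomain transcription factor that, with its partner MEIS1, keeps myeloid progenitors proliferating, and a block of differentiation follows when its level stays high. Fused to the hormone-binding part of the estrogen receptor, the factor is held active by E2, and removing the hormone lets the progenitors mature toward granulocytes and monocytes. The comparison asks which H3K4me3 peaks differ from those of untreated cells after a short withdrawal followed by a return to E2.

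The promoters of a few genes marked in one list only are printed as examples. The sequences are RefSeq promoters of build GRCm38.p6, from 250 bases before to 50 bases after the start, written 5′ to 3′ with CpG dinucleotides in capitals. Those shown have at least 150 of their 300 bases under a peak and belong to genes with a peak in the same list only. They are 1 promoter of the E2 list (Tbc1d12) and 4 of the 24 h list, chosen to span CpG-rich and CpG-poor DNA.

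Tbc1d12 (chr19:38836329-38836628, + strand): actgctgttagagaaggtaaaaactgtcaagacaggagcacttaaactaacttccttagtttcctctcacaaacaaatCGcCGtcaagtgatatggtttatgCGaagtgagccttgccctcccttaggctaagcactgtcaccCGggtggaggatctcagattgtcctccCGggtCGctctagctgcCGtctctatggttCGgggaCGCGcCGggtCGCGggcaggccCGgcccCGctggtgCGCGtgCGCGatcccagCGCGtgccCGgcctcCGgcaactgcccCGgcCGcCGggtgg

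Ndufa1 (chrX:37191189-37191488, - strand): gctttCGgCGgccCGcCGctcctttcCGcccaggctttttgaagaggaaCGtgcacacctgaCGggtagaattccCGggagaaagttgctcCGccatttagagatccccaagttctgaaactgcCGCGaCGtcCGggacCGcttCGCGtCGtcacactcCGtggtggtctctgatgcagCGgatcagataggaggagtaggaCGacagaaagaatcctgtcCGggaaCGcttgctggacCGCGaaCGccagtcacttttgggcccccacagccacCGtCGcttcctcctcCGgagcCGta

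Mtfp1 (chr11:4095382-4095681, - strand): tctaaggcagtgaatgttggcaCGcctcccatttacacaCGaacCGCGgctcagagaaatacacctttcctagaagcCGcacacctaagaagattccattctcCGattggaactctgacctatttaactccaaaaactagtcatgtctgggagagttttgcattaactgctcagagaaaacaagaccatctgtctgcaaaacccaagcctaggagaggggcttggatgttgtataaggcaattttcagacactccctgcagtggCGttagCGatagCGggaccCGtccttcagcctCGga

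Isg15 (chr4:156200769-156201068, - strand): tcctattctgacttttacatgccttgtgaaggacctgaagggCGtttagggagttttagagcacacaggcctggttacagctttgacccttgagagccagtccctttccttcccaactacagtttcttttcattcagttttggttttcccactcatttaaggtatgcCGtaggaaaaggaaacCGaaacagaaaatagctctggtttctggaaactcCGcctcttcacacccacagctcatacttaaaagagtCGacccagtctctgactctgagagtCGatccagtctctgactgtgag

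Rsad2 (chr12:26456403-26456702, - strand): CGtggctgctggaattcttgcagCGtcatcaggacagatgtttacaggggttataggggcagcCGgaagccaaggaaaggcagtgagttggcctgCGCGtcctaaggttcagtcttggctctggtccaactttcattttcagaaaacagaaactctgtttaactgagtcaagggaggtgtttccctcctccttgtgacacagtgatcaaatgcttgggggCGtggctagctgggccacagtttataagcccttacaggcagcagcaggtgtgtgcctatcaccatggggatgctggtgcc

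The promoter of Tbc1d12, which encodes a protein with a Rab GTPase-activating domain, held 26 CpGs, with 153 bases covered in E2, 0 at 24 h, and 140, 191 and 300 at 40, 72 and 120 h. That of Ndufa1, a subunit of respiratory complex I, held 29 CpGs and was covered over 0 bases in E2 and all 300 in each of the other 4 lists. The promoter of Mtfp1, a mitochondrial fission factor, held 11 CpGs with the same coverage, 0 in E2 and 300 elsewhere. Isg15 (a ubiquitin-like protein) and Rsad2 (viperin), both interferon-induced, had CpG-poor promoters with 6 CpGs each. The Isg15 promoter had 290 bases covered at 24 h, 169 at 40 h and 279 at 120 h, with none in E2 or at 72 h. For Rsad2 the lengths in E2 and at 24, 40, 72 and 120 h were 0, 162, 101, 161 and 300 bases.

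Over all matched promoters, those that met only a 24 h peak were CpG-rich, much like those that met peaks of both lists. The former belong to 1839 genes, more than the 878 genes marked at 24 h only, so many of these genes also had an E2 peak nearby. The sequence of peaks away from promoters was not examined. RefSeq gave 21045 promoters for 17274 of the 21631 protein-coding genes considered. The median promoter held 22 CpGs where a peak of both lists overlapped it (n = 4557), 20 where only a 24 h peak did (n = 1973), 24 where only an E2 peak did (n = 342) and 7 where neither did (n = 14173). Motifs were searched on both strands. The GAS-like STAT motif TTCNNNGAA was present in 7.55% of promoters with a 24 h peak only in 7.02% of those with peaks of both lists and in 7.76% of all promoters, the ETS motif GAGGAAGT of PU.1 in 3.19%, 3.18% and 3.15%, the C/EBP-like motif TTGCNNAA in 9.22%, 7.79% and 10.3%, the HOX-PBX motif TGATTTAT in 0.558%, 0.285% and 0.822%, and the MEIS motif TGACAG in 18.0%, 16.9% and 18.3%. For promoters with an E2 peak only the shares were 6.73% for TTCNNNGAA, 3.80% for GAGGAAGT, 7.02% for TTGCNNAA, 0.292% for TGATTTAT and 16.1% for TGACAG. The full palindromic estrogen response element was found in 11 of the 21045 promoters and in 0 of both one-list classes.

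Peaks that stood in one list only were narrow. The 939 peaks of the E2 list alone had a median width of 238 bp (quartiles 211 and 299.5), against 518 bp for the 16558 E2 peaks shared with the 24 h list. The 6888 peaks of the 24 h list alone had a median of 283.5 bp (quartiles 226 and 387), against 654 bp for the 15983 shared ones. Peaks over 500 bp numbered 15 and 754, and peaks over 1 kb numbered 1 and 39. The least width of any peak was 198 bp in the E2 list and 200 bp in the 24 h list, and several peaks of genes named below are at or near it. The E2-only peaks covered 0.252 Mb in all, and the 24 h-only peaks 2.28 Mb.

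**Figure D1:**
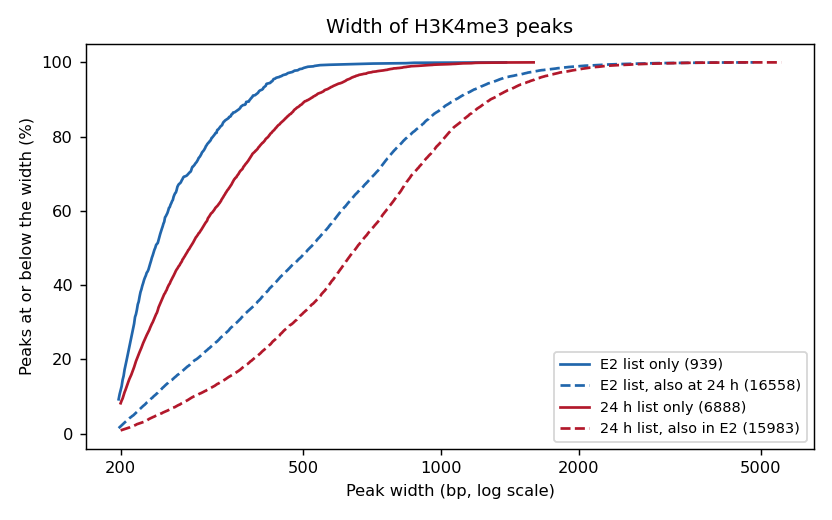
Cumulative share of H3K4me3 peaks (%, vertical axis) by peak width (bp, log scale) for peaks in one list only (solid lines) and peaks overlapping the other list (dashed lines), 1 library each. Both solid curves lie to the left of the dashed ones, with medians of 238 and 283.5 bp against 518 and 654 bp.

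The 24 h list was longer, and the balance between the lists depended on which peaks were kept. It held 22871 peaks covering 14.2 Mb, and the E2 list 17497 peaks covering 10.4 Mb. The files hold no read counts or scores, so the depth of the libraries is unknown. At the 15108 places where peaks of both lists met, covered length was 1.18 times higher at 24 h, and the 24 h stretch was the longer one at 11210 of them (74.2%). Lists of equal length were made by shortening the 24 h list to 17497 peaks, while the E2 list stayed whole. In such settings E2-only counts can only rise and 24 h-only counts can only fall. With the 17497 widest peaks, 2237 peaks stood in the E2 list only and 3194 in the 24 h list only. With the first 17497 rows of each file, whose order the sources do not explain, the numbers were 2763 and 3519. How far the lengths of the lists set the differences below was not tested.

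Many one-list peaks lay beside a peak of the other list. Of the E2-only peaks, 579 (61.7%) lay within 500 bp of a 24 h peak and 196 (20.9%) lay more than 5 kb from any. Of the 24 h-only peaks, 2582 (37.5%) lay within 500 bp of an E2 peak and 2788 (40.5%) more than 5 kb away. At the edge of the rule, 9 E2-only and 19 24 h-only peaks missed an overlap by 10 bp or less, and 8 E2 and 15 24 h peaks counted as shared on an overlap of 10 bp or less. When peaks within 1 kb were merged in each list, 324 stretches stood in the E2 list only and 2949 in the 24 h list only.

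The share near gene ends was smaller among one-list peaks than among shared peaks, and the counting intervals did not overlap. Of the 24 h-only peaks, 2719 (39.5%, interval 38.3 to 40.6%) lay within 1 kb of a gene end, 36.6% elsewhere inside a gene and 23.9% between genes. For the shared 24 h peaks the shares were 71.5% (interval 70.8 to 72.2%), 20.5% and 7.93%. Of the E2-only peaks, 443 (47.2%, interval 43.9 to 50.4%) lay near a gene end, against 70.5% (interval 69.8 to 71.2%) of the shared E2 peaks. The 2788 24 h-only peaks more than 5 kb from any E2 peak were placed at a gene end in 658 cases, inside a gene in 1007 and between genes in 1123.

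Chromosome X had the highest share of one-list peaks in both directions. There, 218 of 503 peaks of the 24 h list (43.3%, interval 39.0 to 47.8%) stood in that list only, against 6670 of 22368 on the autosomes (29.8%, interval 29.2 to 30.4%). In E2 the numbers were 32 of 329 (9.73%, interval 6.75 to 13.5%) on X and 907 of 17168 (5.28%) on the autosomes. Chromosome 13 was close to X in E2, with 69 of 794 (8.69%, interval 6.82 to 10.9%), so X did not stand apart from every autosome there. Peaks on X were also narrower, at a median of 356 bp where autosomal peaks had 496.5 bp in E2, and of 425 bp where they had 510 bp at 24 h. The part of peak width in the share on X was not tested.

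**Figure D2:**
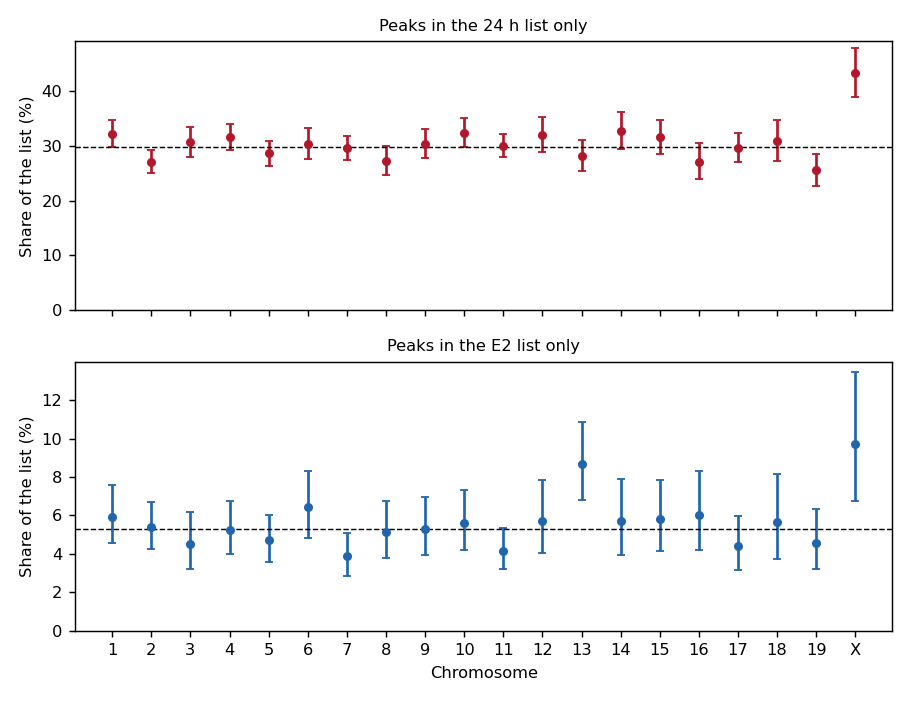
Share of the peaks of each list that stood in that list only (%, vertical axis) by chromosome, with exact 95% intervals that cover counting error only. The dashed line is the share over the autosomes, and chromosome X lies highest in both panels (43.3% at 24 h and 9.73% in E2), with chromosome 13 close to it in E2 (8.69%).

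Most one-list peaks recurred in another H3K4me3 list of the series. The 40, 72 and 120 h lists have the same single E2 library as their reference, so values are set side by side and are not independent gains or losses. Of the 939 E2-only peaks, 539 (57.4%) overlapped a peak at 40 h, 652 (69.4%) at 72 h and 619 (65.9%) at 120 h. All 3 lists held 332 of them (35.4%), so these were missing at 24 h alone, and 119 (12.7%) were in none. Of the 6888 24 h-only peaks, 4167 (60.5%) overlapped a peak at 40 h, 4405 (64.0%) at 72 h and 4544 (66.0%) at 120 h. All 3 lists held 2874 (41.7%), so these were missing in E2 alone, and 1180 (17.1%) were in none. Shared peaks overlapped the 40, 72 and 120 h lists in 93.8 to 97.3% of cases.

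HOXA9 sites were a readout that the choice of peaks did not use, and their shares at one-list and shared peaks depended on the site list. The larger list held 17006 V5 peaks from cells with V5-tagged HOXA9 (V5-Hoxa9-AM). They overlapped 688 of the 24 h-only peaks (9.99%, interval 9.29 to 10.7%) and 1609 of the shared 24 h peaks (10.1%). They overlapped 76 of the E2-only peaks (8.09%, interval 6.43 to 10.0%) and 1430 of the shared E2 peaks (8.64%). Among 24 h-only peaks more than 5 kb from any E2 peak, 322 of 2788 (11.5%, interval 10.4 to 12.8%) held a site. With this list the counting intervals of one-list and shared peaks overlapped. With the 1417 sites of V5-ER-Hoxa9-AM cells in E2, 53 of the 24 h-only peaks (0.769%, interval 0.577 to 1.01%) and 67 of the shared 24 h peaks (0.419%, interval 0.325 to 0.532%) held a site, and these intervals did not overlap. For the E2 list the numbers were 7 (0.745%, interval 0.300 to 1.53%) and 55 (0.332%, interval 0.250 to 0.432%), and these did. A wider peak meets a site by 1 bp more easily, and the classes differed in width. Median widths were 283.5 bp (24 h-only) against 654 bp (shared), and 238 bp (E2-only) against 518 bp (shared). The part of width in these shares was not tested.

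The widest 24 h-only peaks included stretches far from genes. The widest, chr15:101318465-101320059 (1595 bp), lay between genes, 21.0 kb from Smim41 and 205 bp from an E2 peak. It was covered over 0 bp in each of E2, 40, 72 and 120 h and held 145 bp of HOXA9 sites. The next, chr7:35152083-35153646 (1564 bp), lay 30.2 kb from Cebpa, which encodes a transcription factor required for granulocyte differentiation, and held 306 bp of HOXA9 sites. It was covered over 768 bp at 40 h and over 0 bp in E2 and at 72 and 120 h. Both stretches were thus confined to the shorter withdrawals among the 5 libraries. A peak of 1292 bp inside Ptpre, a receptor-type tyrosine phosphatase gene, had 1001, 522 and 1292 bp of it covered at 40, 72 and 120 h. A peak of 1384 bp inside Tdrd5, a Tudor-domain gene of germ cells, was covered over 1120, 1365 and 562 bp. These peaks of Ptpre and Tdrd5 were missing in E2 alone.

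Wide E2-only peaks were rare. The only one over 1 kb, chr3:58417864-58419251 (1388 bp), lay inside Tsc22d2, 45 bp from a 24 h peak, with 1077, 850 and 216 bp of it also covered at 40, 72 and 120 h. A peak of 840 bp inside Elf1, an ETS-family transcription factor gene, held 613 bp of HOXA9 sites and had 757, 0 and 227 bp of coverage at 40, 72 and 120 h. A peak of 874 bp lay 181 bp from Mtmr12 and was covered over 738, 860 and 505 bp. These 3 peaks each had counterparts in at least 2 of the 40, 72 and 120 h lists.

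Per gene, far more genes gained a peak at 24 h than lost one. Of the 21631 genes, 10188 had a peak in E2, 10977 at 24 h and 10099 in both. Among genes with an E2 peak, 89 (0.874%) had none at 24 h, 120 (1.18%) had at least 2 times less covered length and 1026 (10.1%) at least 2 times more. Among the 11443 genes without an E2 peak, 878 (7.67%) had one at 24 h. Ratios are log2 of covered length plus 50 bp, 24 h over E2, and their median over genes marked in both lists was 0.31, a 1.24-fold higher length at 24 h. Over the 11066 genes with a peak in either list, 89 were marked in E2 only (0.804%) and 878 at 24 h only (7.93%), while 1898 were at least 2 times higher (17.2%) and 120 lower (1.08%), and 94.1% of these calls were thus upward. Relative to the median of genes marked in both, the numbers were 1349 and 178, of which 88.3% were upward. With the first 17497 rows of each file, 529 genes were marked in E2 only and 513 at 24 h only, so the excess of gains was lost in that setting. It shortens the 24 h list alone, so the direction of this change was fixed in advance. With the 17497 widest peaks the numbers were 274 and 547.

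**Figure D3:**
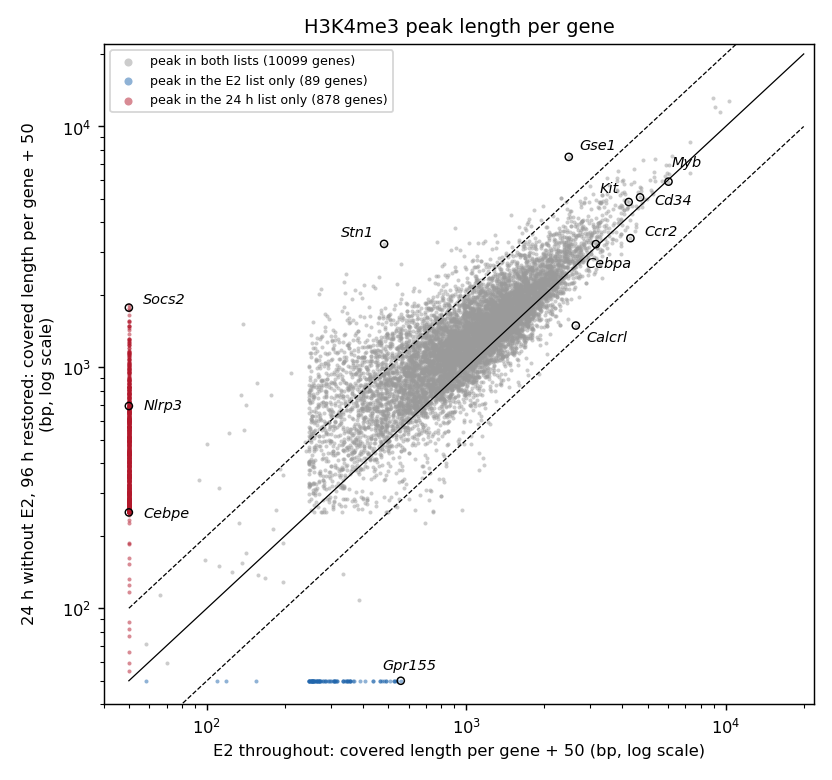
Covered length per gene plus 50 bp in E2 (horizontal axis) and at 24 h (vertical axis), both on log scales in bp, 1 point a gene; the solid line marks equality and the dashed lines 2 times. Most of the 10099 genes marked in both lie above the line, 878 genes stand at 0 in E2 and 89 at 0 at 24 h.

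The genes marked only in E2 had short peaks there. Their median covered length was 239 bp, and Gpr155 alone exceeded 500 bp. Gpr155, a membrane protein of lysosomes, had 509 bp in E2, 0 at 24 h and 879, 913 and 1003 bp at 40, 72 and 120 h. Stx17, a SNARE of autophagosome fusion, had 492 bp in E2, 0 at 24 h and 206, 724 and 818 bp in the 40, 72 and 120 h lists. Aim2, an inflammasome sensor of cytosolic DNA, had 478 bp in E2, 0 at 24 h and 2038, 1776 and 1306 bp. For these 3 genes the 24 h library was the only one of 5 without a peak. Wnt10a, a secreted Wnt ligand, instead had 479 bp in E2, 677 bp at 40 h and 0 at 24, 72 and 120 h. Oasl1, an interferon-induced member of the oligoadenylate synthetase family, had 425 bp in E2, 0 at 24, 40 and 72 h and 1618 bp at 120 h. Over all 89 genes, 55 had a peak in each of the 40, 72 and 120 h lists and 9 in none.

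The 9 genes with a peak in the E2 library alone of 5 were Slc4a4 (415 bp), Stox2 (316 bp), Slc8a1 (257 bp), Zfp286 (243 bp), Asic2 (234 bp), Blnk (220 bp), Plekha7 (209 bp), Sdc4 (204 bp) and Ank3 (198 bp). They were picked because they are the whole of that count. Slc4a4 encodes a sodium bicarbonate cotransporter, Slc8a1 a sodium-calcium exchanger and Blnk the adaptor of B cell receptor signalling. None of them exceeded 500 bp.

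Genes marked at 24 h but not in E2 had longer stretches. Their median was 381 bp, with 294 over 500 bp and 46 over 1 kb. Socs2, a feedback inhibitor of cytokine signalling, had 0 bp in E2, 1720 bp at 24 h in 4 peaks, and 389, 684 and 791 bp at 40, 72 and 120 h. The nonagouti gene, a pigment-switch signal, had 0 bp in E2, 1764 bp at 24 h and 2076, 2103 and 2294 bp. Taz, the tafazzin gene of cardiolipin remodelling on chromosome X, had 0 bp in E2, 1677 bp at 24 h and 1176, 2086 and 2003 bp. Socs2 was thus longest at 24 h, whereas the nonagouti gene and Taz were longer at 120 h than at 24 h.

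Other genes among the 12 longest were also marked in each of the 40, 72 and 120 h lists. Mtfp1 had 0 bp in E2, 1486 bp at 24 h and 1439, 1608 and 1272 bp at 40, 72 and 120 h. Nhej1, an end-joining repair factor, had 0 bp in E2, 1434 bp at 24 h and 904, 1243 and 1284 bp. Ndufa1 and its neighbour Rnf113a1 share their peaks and count as 1 place, with 0 bp in E2, 1514 bp at 24 h and 1470, 1477 and 1290 bp. In these 4 genes E2 was the only library of 5 without a peak. Akap6, an anchoring protein of protein kinase A, had 0 bp in E2, 1403 bp at 24 h and 862, 1095 and 208 bp, the shortest of its 4 marked libraries being 120 h. Over all 878 genes, 540 had a peak in each of the 40, 72 and 120 h lists and 67 in none. The longest of those 67, named because of that value, was Plet1 with 1001 bp, followed by Tmem108 with 757 bp.

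**Figure D4:**
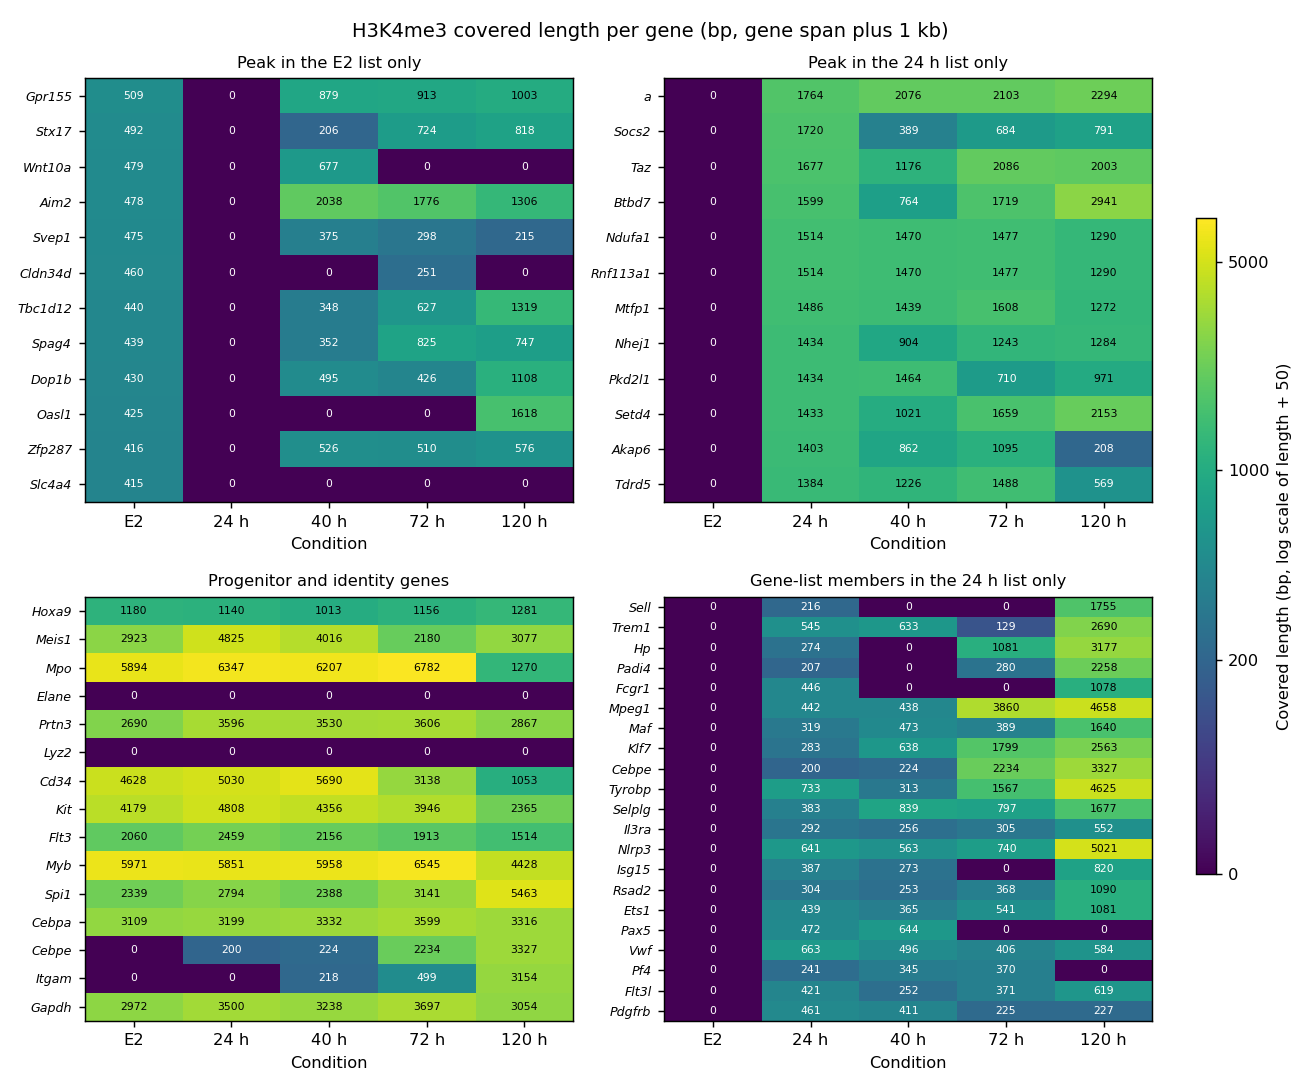
Covered length (bp, colour on a log scale of length plus 50, value printed in each cell) of named genes in the 5 H3K4me3 libraries. Genes marked in E2 only stay at or below 509 bp there, genes marked at 24 h only reach 1764 bp at 24 h, and the identity genes Mpo and Myb have at least 5851 bp in both E2 and 24 h.

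Among genes marked in both lists, the longest additions were in genes with several 24 h-only peaks. Gse1, a partner of LSD1-containing complexes, had 2434 bp in E2 against 7427 bp at 24 h (log2 ratio 1.59), with 7 peaks of the 24 h list only, and 6131, 7926 and 11614 bp at 40, 72 and 120 h. Pde4d, a cAMP phosphodiesterase, had 8850 bp in E2, 13115 bp at 24 h (log2 ratio 0.56) with 10 such peaks, and 14811, 14528 and 12406 bp. Nfix, a nuclear factor I transcription factor, had 856 bp in E2, 3727 bp at 24 h (log2 ratio 2.06) and 2644, 4958 and 6464 bp. All 3 were lowest in E2 among the 5 libraries. Stn1, a telomere-capping subunit, had 432 bp in E2, 3205 bp at 24 h (log2 ratio 2.76) and 3331, 3925 and 4673 bp. Fli1, an ETS factor of blood cells, had 1933 bp in E2, 4638 bp at 24 h (log2 ratio 1.24) and 3893, 4592 and 4953 bp. Foxp1, a forkhead factor, had 9047 bp in E2, 11945 bp at 24 h (log2 ratio 0.40) and 15290, 9160 and 9744 bp, so that its lengths at 72 and 120 h were near that in E2. Its ratio was close to the median of 0.31 over genes marked in both lists. These genes were picked by difference in bp, which favours genes with much covered length.

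Shorter lengths at 24 h were smaller in size. Calcrl, the receptor of adrenomedullin and calcitonin gene-related peptide, had 2594 bp in E2, 1441 bp at 24 h (log2 ratio -0.83) and 2985, 3002 and 1843 bp at 40, 72 and 120 h. Borcs6, a member of a complex that positions lysosomes, had 1855 bp in E2, 888 bp at 24 h (log2 ratio -1.02) and 1618, 2055 and 2146 bp. Samsn1, an adaptor protein of blood cells, had 3638 bp in E2, 2662 bp at 24 h and 3993, 3371 and 1762 bp. Calcrl and Borcs6 were thus shortest at 24 h, and Samsn1 at 120 h. Ccr2, the monocyte chemokine receptor, had 4244 bp in E2, 3388 bp at 24 h and 3632, 1242 and 0 bp. Elf1 had 7230 bp in E2, 6362 bp at 24 h and 8353, 7609 and 6314 bp.

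Progenitor genes with a peak in E2 also had one at 24 h, as did nearly all genes. Of 38 progenitor genes, 31 had a peak in E2 and 0 of these lost it, against 0.874% of all genes with an E2 peak. None of the 31 was past 2 times in either direction, where 10.1% of all genes with an E2 peak were longer and 1.18% shorter by that rule. Their median log2 ratio was 0.38, and 0.30 over all 10188 genes with an E2 peak, with 16 of the 31 above the latter. With 1 kb around either gene end counted in place of the span, 3 of 26 progenitor genes were at least 2 times higher and 0 lower. That is 11.5%, against 14.7% of all genes in that setting. With the first 17497 rows of each file, 2 progenitor genes were marked in E2 alone, 0 at 24 h alone, and 3 were at least 2 times lower. Plac8 had 2799 bp in E2 against 4784 bp at 24 h (log2 ratio 0.76), and Gata2, a transcription factor of stem and progenitor cells, 1307 against 2148 bp (log2 ratio 0.70). Tespa1 had 2386 bp in E2 against 1852 bp at 24 h (log2 ratio -0.36), the greatest shortening in the list. These 3 were named after their values were seen, as examples above and below the median. Cd34, a surface marker of progenitors, had 4628 and 5030 bp, Kit, the receptor of stem cell factor, 4179 and 4808 bp, and Flt3, a receptor of early progenitors, 2060 and 2459 bp in E2 and at 24 h. Cd34, Kit and Flt3 were longer at 24 h as deposited, by less than the median gene, so that relative to that median these 3 members were shorter. Myb, a transcription factor of proliferating progenitors, had 5971 bp in E2 against 5851 bp at 24 h.

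Most primary granule genes with a peak were longer at 24 h. Of 13 genes, 8 had a peak in E2 and all 8 at 24 h (0.874% of all genes with an E2 peak had none). At 24 h, 6 of the 8 were longer and 2 (Ctsg and Ctsc) shorter. Their median log2 ratio was 0.27, against 0.30 over all genes with an E2 peak. Mpo, the myeloperoxidase, had 5894 bp in E2, 6347 bp at 24 h and 6207, 6782 and 1270 bp at 40, 72 and 120 h. Ctsg, the protease cathepsin G, had 4131 bp in E2, 3779 bp at 24 h and 3906, 3461 and 1209 bp. Ctsc, which activates granule proteases, had 1332 bp in E2, 1056 bp at 24 h and 1809, 1951 and 2723 bp. Prss57, a granule serine protease, was the one gene past 2 times, with 516 bp in E2, 1158 bp at 24 h and 1419, 2379 and 2309 bp. This 1 of 8 is 12.5%, against 10.1% of all genes with an E2 peak. Elane, the neutrophil elastase gene, had 0 bp in each of the 5 libraries.

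Hoxa9 and its partner were both marked in every library. Hoxa9 had 1180 bp in E2, 1140 bp at 24 h and 1013, 1156 and 1281 bp at 40, 72 and 120 h. These peaks cannot tell the endogenous gene from the transgene. Meis1 had 2923 bp in E2 against 4825 bp at 24 h (log2 ratio 0.71), with 6 peaks of the 24 h list only, and 4016, 2180 and 3077 bp in the 40, 72 and 120 h lists. Meis1 was thus longest at 24 h. In a list of 25 HOXA9 program genes, 21 had a peak in E2 and all 21 had one at 24 h (0.874% of all genes with an E2 peak had none). None of the 21 was past 2 times, where 10.1% of all genes with an E2 peak were longer and 1.18% shorter by that rule. With the first 17497 rows of each file, 1 was marked in E2 alone, 1 at 24 h alone, and 2 were at least 2 times lower. Of the 4 without, 1 had a peak at 24 h (25%, against 7.67% of all genes without an E2 peak). This was Ets1, an ETS transcription factor, with 0 bp in E2, 439 bp at 24 h and 365, 541 and 1081 bp at 40, 72 and 120 h.

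Maturation genes of neutrophils gained a few short peaks. Of 34 genes, 28 had no peak in E2 and 4 of these had one at 24 h (14.3%, against 7.67% of all genes without an E2 peak). Trem1, an activating receptor of neutrophils and monocytes, had 0 bp in E2, 545 bp at 24 h and 633, 129 and 2690 bp at 40, 72 and 120 h. Hp, the haptoglobin gene, had 0 bp in E2, 274 bp at 24 h and 0, 1081 and 3177 bp. Padi4, the deiminase that citrullinates histones, had 0 bp in E2, 207 bp at 24 h and 0, 280 and 2258 bp. Each of these was several times longer at 120 h without E2 than at 24 h. The fourth was Cebpe, the transcription factor of late granulocyte maturation, with 0 bp in E2, 200 bp at 24 h and 224, 2234 and 3327 bp. Its 200 bp is the least peak width of the 24 h list. The other 24 had no peak in either list, including Lcn2, Ltf, Ngp, Camp, S100a8, S100a9, Itgam and Lyz2. Of those named, Camp and Lyz2 had 0 bp in all 5 libraries, while the rest were marked at 120 h. Of the 6 with an E2 peak, Csf3r, the receptor of granulocyte colony-stimulating factor, had 568 bp in E2 against 1661 bp at 24 h, Anxa1 had 410 and 1207 bp, and Pglyrp1, a peptidoglycan-binding granule protein, had 245 and 0 bp. With lists of equal length by width, 1 gene of the list was marked in E2 alone and 1 at 24 h alone, and by row, 1 and 0. The excess of gains was thus lost in both settings, which shorten the 24 h list alone.

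Monocyte and macrophage genes showed a similar picture. Of 29 genes, 19 had no peak in E2 and 4 of these had one at 24 h (21.1%, against 7.67% of all genes without an E2 peak). Fcgr1, the high-affinity IgG receptor, had 0 bp in E2, 446 bp at 24 h, 0 at 40 and 72 h and 1078 bp at 120 h. Mpeg1, a pore-forming protein of phagocytes, had 0 bp in E2, 442 bp at 24 h and 438, 3860 and 4658 bp. Maf, a macrophage transcription factor, had 0 bp in E2, 319 bp at 24 h and 473, 389 and 1640 bp. The fourth was Ctss, the lysosomal protease cathepsin S, with 0 bp in E2, 233 bp at 24 h, 0 at 40 and 72 h and 830 bp at 120 h. Fcgr1 and Ctss were thus marked at 24 and 120 h but not at 40 and 72 h. Csf1r, Cd14, Adgre1 and Klf4, defining genes of the lineage, had no peak in E2 or at 24 h. Of the 10 genes with an E2 peak, 1 lost it. This was Cd68, with 59 bp in E2, 0 at 24 h and 177, 82 and 799 bp at 40, 72 and 120 h. Its 59 bp were the edge of a 315 bp E2 peak that lay mostly beyond the 1 kb flank. The loss of Cd68 thus depends on where the counting window ends. With lists of equal length by width, 1 gene was marked in E2 alone and 2 at 24 h alone, and by row, 1 and 3.

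Receptor, adhesion and interferon genes also gained peaks at 24 h. Of 15 signalling receptor and adhesion genes without an E2 peak, 4 had one at 24 h (26.7%, against 7.67% of all genes without an E2 peak). Of the 15 with an E2 peak, 5 were at least 2 times longer (33.3%, against 10.1% of all genes with an E2 peak). Tyrobp, the adaptor DAP12 of activating receptors, had 0 bp in E2, 733 bp at 24 h and 313, 1567 and 4625 bp at 40, 72 and 120 h. Selplg, the selectin ligand PSGL-1, had 0 bp in E2, 383 bp at 24 h and 839, 797 and 1677 bp. Of 9 interferon and inflammation genes without an E2 peak, 4 had one at 24 h (44.4%, against 7.67% of all genes without an E2 peak). Nlrp3, an inflammasome sensor, had 0 bp in E2, 641 bp at 24 h and 563, 740 and 5021 bp, and Isg15 had 0 bp in E2, 387 bp at 24 h and 273, 0 and 820 bp. Rsad2 had 0 bp in E2, 304 bp at 24 h and 253, 368 and 1090 bp, and Oas1a, an oligoadenylate synthetase, 0, 229, 0, 492 and 1034 bp. In the other direction Socs3, a feedback inhibitor of cytokine signalling, had 220 bp in E2, 0 at 24 h and 460, 307 and 1546 bp. Socs2 and Socs3 therefore stood on opposite sides of the comparison, though the E2 peak of Socs3 was near the least width of that list (198 bp). With the first 17497 rows of each file, the receptor and adhesion list had 3 genes marked in E2 alone and 2 at 24 h alone, and the interferon list also 3 and 2, so the excess of gains was lost in both. Shortening the 24 h list alone can only move the counts in that direction. By width, the numbers at equal length were 0 and 2, and 1 and 3.

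**Figure D5:**
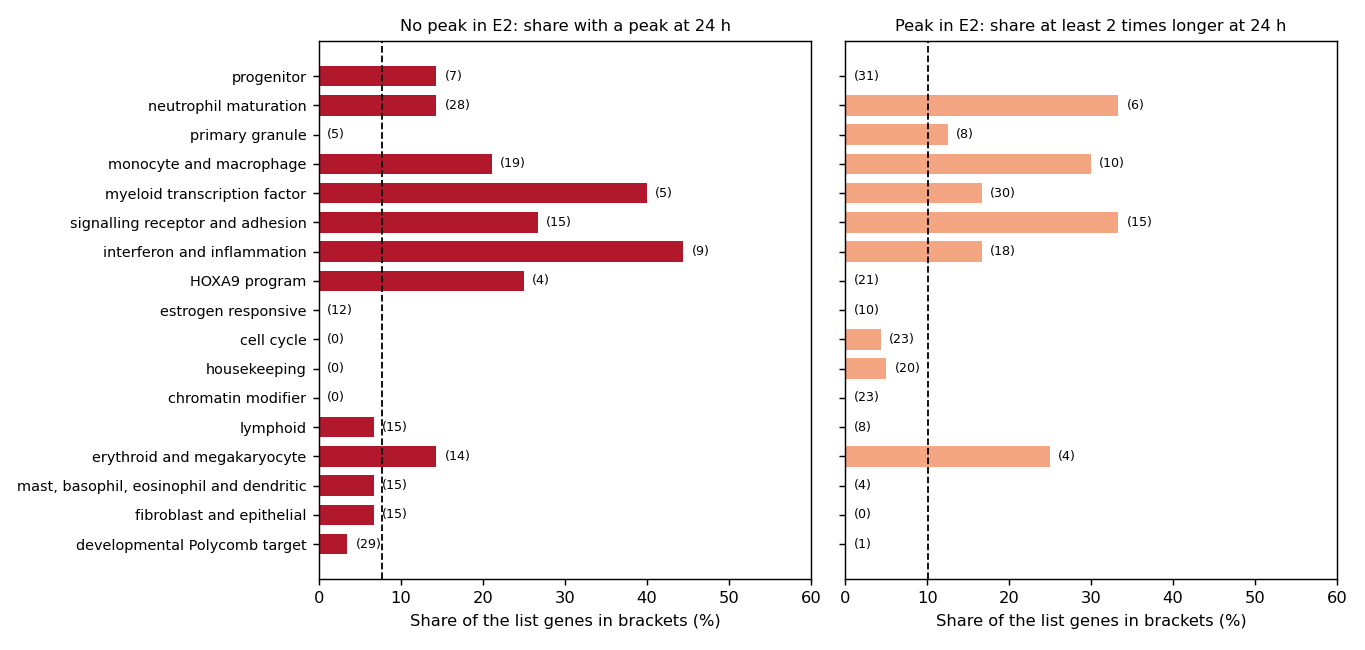
Left, share of the list genes without a peak in E2 that had one at 24 h (%); right, share of those with a peak in E2 that were at least 2 times longer at 24 h (%). Numbers in brackets are the genes each share rests on and dashed lines mark all genes (7.67% and 10.1%); interferon and inflammation genes reach 44.4% on the left over 9 genes.

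Myeloid transcription factor genes were mostly marked from the start. Of 35 genes, 30 had a peak in E2 and 29 of these had one at 24 h. At least 2 times longer were 5 of the 30 (16.7%, against 10.1% of all genes with an E2 peak). Irf5, an interferon regulatory factor, had 200 bp in E2, 760 bp at 24 h and 544, 1340 and 4180 bp at 40, 72 and 120 h. Cebpb, a C/EBP factor of emergency granulopoiesis, had 363 bp in E2, 1244 bp at 24 h and 1712, 1975 and 2788 bp. Klf2, a Kruppel-like factor, had 247 bp in E2, 0 at 24 h and 464, 397 and 2640 bp. Irf5 and Cebpb were lowest in E2 and Klf2 at 24 h. The balance of genes marked in one list only turned with lists of equal length, where the 24 h list alone is shortened. By width, 4 genes were marked in E2 alone and 0 at 24 h alone, and by row, 5 and 1. Median log2 ratios of the list stayed positive there, at 0.18 and 0.11, against 0.24 and 0.20 over all genes. With 1 kb around either gene end counted in place of the span, 1 gene of 27 was marked in E2 alone and 7 at 24 h alone (25.9%, all genes 7.56%). Spi1, which encodes PU.1, had 2339 and 2794 bp and Cebpa 3109 and 3199 bp in E2 and at 24 h. The median log2 ratio of the 30 genes was 0.30, the same as over all genes with an E2 peak.

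All 23 cell cycle, 20 housekeeping and 23 chromatin modifier genes had a peak in both lists, where 0.874% of all genes with an E2 peak had none at 24 h. They had median log2 ratios of 0.14, 0.35 and 0.21, against 0.30 over all genes with an E2 peak. Of all genes with an E2 peak, 10.1% were at least 2 times longer at 24 h and 1.18% at least 2 times shorter. Ccnd3, a D-type cyclin, was the one cell cycle gene past 2 times, with 1128 bp in E2, 2626 bp at 24 h and 2502, 3333 and 6676 bp at 40, 72 and 120 h. Hprt, the purine salvage gene on chromosome X, was the one housekeeping gene past 2 times, with 497 bp in E2 against 1297 bp at 24 h. Of 22 estrogen-responsive genes known from other tissues, 10 were marked, and all 10 in both lists with none past 2 times. The other 12, among them Greb1, Pgr and Tff1, had no peak in either.

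Among markers of other lineages few genes gained or lost a peak. The shares gained were 6.67% or 14.3% on small counts, against 7.67% of all genes without an E2 peak. Of 23 lymphoid genes, 7 had a peak in both lists and 14 in neither, including Cd3e and Cd79a. Blnk had 220 bp in E2 and 0 at 24 h. Pax5, a B-lineage transcription factor, had 0 bp in E2, 472 bp at 24 h and 644, 0 and 0 bp at 40, 72 and 120 h. It was the 1 gain among 15 lymphoid genes without an E2 peak (6.67%, against 7.67% of all genes without one). The summed length of the lymphoid list was 9307 bp in E2, 12849 bp at 24 h and 12475, 3616 and 3415 bp at 40, 72 and 120 h. Ebf1, a B-lineage transcription factor, had 3358 bp in E2, 4603 bp at 24 h and 4371, 1167 and 987 bp, Rag2, of the V(D)J recombinase, 1359, 1668, 1876, 397 and 0 bp, and Igll1, a surrogate light chain, 1539, 1733, 1745, 0 and 0 bp. These early lymphoid genes thus kept at 24 h the length that the 72 and 120 h lists lacked. Of 18 erythroid and megakaryocyte genes, 14 had no peak in E2 and 2 of these had one at 24 h (14.3%, against 7.67% of all genes without an E2 peak). The share for neutrophil maturation genes was the same 14.3%. Vwf, the von Willebrand factor gene, had 0 bp in E2, 663 bp at 24 h and 496, 406 and 584 bp, and Pf4, platelet factor 4, had 0, 241, 345, 370 and 0 bp. Gata1, Alas2, Itga2b and the globin genes of that list had none in either. Tfr2, a transferrin receptor, had 225 bp in E2, 1282 bp at 24 h and 897, 966 and 1407 bp. Summed lengths of the list were 2397 bp in E2 against 4970 bp at 24 h. By row at equal length, 1 gene of it was marked in E2 only and none at 24 h only. Of 19 genes of mast cells, basophils, eosinophils and dendritic cells, 4 had a peak in E2. Those 4 and 1 more (6.67% of the 15 without an E2 peak, against 7.67% over all genes) had one at 24 h. All 5 were longer at 24 h, with summed lengths of 3342 bp in E2 against 5796 bp. The added gene was Flt3l, the FLT3 ligand, with 0 bp in E2, 421 bp at 24 h and 252, 371 and 619 bp. Cpa3, Mcpt8, Epx and Prg2 of that list had no peak in either. The part of such cells in the results was not tested. Of 15 fibroblast and epithelial genes none had a peak in E2 and only Pdgfrb had one at 24 h (461 bp). That is 6.67% of the list, against 7.67% of all genes without an E2 peak.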

How the data were processed

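The deposited H3K4me3 files give only peak coordinates (no score, height, count or depth), from which peak numbers, widths and covered length were computed here. Per the submitters' processing notes, Bowtie2 2.0, BWA and MACS2 2.0 and the builds mm9 and mm10 were used, with no role stated. Peak threshold, input and pooling are not given in the sources used here. All coordinates were read as mm10, whose gene positions came from RefSeq (GRCm38.p6). Chromosomes 1 to 19 and X were kept. Peaks were compared by 1 bp overlap and genes by covered length with 50 bp added, in Python 3.11.15, pandas 2.3.3, numpy 2.4.6 and scipy 1.17.1. Genes named are, per list, up to 3 a direction past 2 times, the 12 longest marked in one list only, the 12 greatest differences among genes marked in both, the genes nearest the 10 widest peaks, and fixed identity genes. Others are named as examples of their list. Of 429 list entries, 424 matched. The members and lists were chosen with earlier results of these data known. H3K27ac and H3K27me3 lists were not used. The gene span plus 1 kb also counts peaks of neighbours. Counting was tested on simulated peaks. All comparisons with other lists share the E2 and 24 h libraries.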

Additional observations from a re-analysis of the deposited data

How the results depend on the processing

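Of 42 values recomputed under other settings, 22 kept within their limit of 1.5 times or of the counting interval and 20 moved. Peaks in the E2 list only numbered 324 with peaks within 1 kb merged, 2237 with the 17497 widest peaks of each list, 17 with peaks above the median width and 2763 with the first 17497 rows of each file. For the 24 h list only, the same settings gave 2949, 3194, 720 and 3519. Genes marked in E2 only numbered 274 with the widest peaks and 529 with the first rows, and genes marked at 24 h only 547 and 513. Genes at least 2 times lower numbered 30 where 500 bp in one list was required, 328 with the widest peaks and 690 with the first rows, and genes at least 2 times higher 1116 with the first rows. The share of peaks with a HOXA9 site was 20.3% for E2-only and 20.2% for 24 h-only peaks within 1 kb, and 0.745% and 0.769% with the V5-ER-Hoxa9-AM sites. The file-row setting, the count without chromosome X and the 5 kb distance were chosen after seeing the data. Why these counts moved was not tested beyond the number of peaks kept. The equal-length settings lower that number for the 24 h list alone, since 17497 is the whole E2 list. They can thus only raise E2-only counts and lower 24 h-only counts. No paired analysis was possible because each group had 1 library. Peak lists without scores or reads give no depth, and covered length is not the height of the signal.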
